A study of Mus musculus with 6 samples.

Results

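Transcript levels of 35 genes of the ephrin, slit and netrin guidance systems, by which spinal axons choose a path, were compared across sorted cells of the mouse embryonic spinal cord. The genes were taken as a named list, matched to array probes through the RefSeq accession that each probe carries, and split by role into ligands (5 ephrin-A, 3 ephrin-B, 3 Slit and 2 netrin genes) and receptors (8 EphA, 5 EphB, 3 Robo, 2 DCC-type and 4 Unc5 genes). They were read by 47 of the 55681 probes on the array, with more than 1 probe for 10 of the genes. Of these, 33 genes (45 probes) entered the tests beside 14919 genes in all. Unc5d, a netrin receptor, was not well above background on any of the 6 arrays, and Epha2, an ephrin-A receptor, had its spot flagged on an array, so neither was tested; the 5 other arrays gave Epha2 between -1.42 and 0.15.

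Cells came from spinal cords of mouse embryos at E12.5. All carried Hb9::GFP, a reporter in which the promoter of the motor neuron gene Hb9 (Mnx1) drives green fluorescent protein, and were labelled either mir-17~92 -/- (called KO-labelled here, for knockout) or WT (WT-labelled, for wild type). GFP-positive cells, called motor neurons here, gave 2 arrays for each genotype label, and GFP-negative cells, called non-motor neurons, gave 1 array for each. The labels do not say whether arrays came from separate embryos or pools, so p-values measure only the spread between these arrays, and the labels leave the sex of the embryos undetermined. The GFP-negative fraction is a mixture of all other cells of the cord.

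Ephrins are ligands held at the cell surface, by a lipid anchor in the A class and by a transmembrane stretch in the B class, and they signal to Eph receptor tyrosine kinases on contact, usually by repulsion. In the limb-innervating motor columns, EphA4 and EphB1 mark neurons that send axons to opposite sides of the limb. Slits are secreted repellents read by Robo receptors, and they keep axons, those of motor neurons among them, from crossing the midline. Netrin attracts through DCC and repels through Unc5 receptors. The deleted cluster encodes 6 microRNA hairpins. A selected mature microRNA from each is shown here, as part of what the KO label says is missing. These 6 microRNAs have 4 different seeds. They are given 5′ to 3′ from RefSeq (GRCm38.p6, chromosome 14, plus strand), with bases 2 to 8, the seed that pairs with targets, in capitals.
miR-17-5p: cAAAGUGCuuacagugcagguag
miR-20a-5p: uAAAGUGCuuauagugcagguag
miR-18a-5p: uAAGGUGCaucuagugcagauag
miR-19a-3p: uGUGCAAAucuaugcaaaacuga
miR-19b-3p: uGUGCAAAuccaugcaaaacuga
miR-92a-3p: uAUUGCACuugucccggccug
miR-17-5p and miR-20a-5p share a seed, as do miR-19a-3p and miR-19b-3p. Target sites in the guidance transcripts were not analysed here.

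The arrays differed in strength. Processed signals had a 75th percentile of 59.9 and 506 on the KO-labelled motor neuron arrays, 48.5 and 64.5 on the WT-labelled ones, and 550 and 340 on the non-motor-neuron arrays (KO-labelled, then WT-labelled), and 41.0% to 62.3% of spots were well above background. The 2 WT-labelled motor neuron arrays stood apart: over genes above background on all 6 arrays they correlated with the other 4 at r = 0.710 to 0.895, while those 4 correlated among themselves at 0.909 to 0.980. Mir17hg, the host transcript of the cluster, read 4.55 and 4.78 on the KO-labelled motor neuron arrays, -2.38 (not well above background) and 2.73 on the WT-labelled ones, and 4.62 and -1.23 on the non-motor-neuron arrays (KO-labelled, then WT-labelled), in log2 units relative to the 75th percentile of each array. The KO-labelled arrays were thus the higher ones at this probe. Whether the probe lies inside the deleted part is not known here, so it does not check the labels, and the groups are named by label throughout. All values below are in the same log2 unit, and because probes differ in brightness a level is compared only with the level of the same probe on other arrays. The markers of motor neurons read 104 to 120, summed over the 12 tested genes in linear units of the 75th percentile, in KO-labelled motor neurons, 45.8 to 50.6 in WT-labelled ones and 12.6 to 15.5 in non-motor neurons, and at least 10 of the 12 were above background on every array. Mnx1 itself had no matched probe. Probes of a gene are numbered for reference only.

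The first comparison asked which guidance genes distinguish motor neurons from the other cells of the cord. Unc5a, a netrin receptor of the repulsive class, was 5.48-fold higher in motor neurons and was the 1 of 33 tested genes to pass. An Epha5 probe passed in the test of single probes. The Robo2, Slit1, Epha8, Ephb1 and Epha6 genes leaned the same way without passing after adjustment, and no member passed in the direction of non-motor neurons. Over all genes 2.29% passed in either direction, 1.54% toward motor neurons and 0.751% toward non-motor neurons, so the members' count was near the background. The median member difference was -0.25, beside -0.21 over all genes, and 9 members had an unadjusted p under 0.05 (7 higher, 2 lower), where 22.1% of all genes did.

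Unc5a read 2.90 and 2.94 on the KO-labelled motor neuron arrays, 3.80 and 2.94 on the WT-labelled ones, and 0.82 and 0.56 on the non-motor-neuron arrays (KO-labelled, then WT-labelled). Every motor neuron array lay above both non-motor-neuron arrays by a gap wider than the spread within either fraction. The mean was 3.14 ± 0.44 (SD, n = 4) in motor neurons and 0.69 in non-motor neurons, a difference of 2.45 ± 0.44 (SE; adjusted p = 0.0337). Within the WT label, where all 3 arrays lay in the same row of the slide, the difference was 2.82 (adjusted p = 0.0395). That value sets 2 arrays against a single non-motor-neuron array, which is assumed to vary like the motor neuron pairs that supply the spread. In the fit to single probes the same values gave an adjusted p of 0.0517. Leaving out an array moved the difference between 2.09 and 2.82, and the call was lost without KO-labelled motor neuron replicate 1 (adjusted p = 0.123), WT-labelled motor neuron replicate 1 (0.118) or the WT-labelled non-motor-neuron array (0.251). It was also lost with quantile normalization (0.0745) and with no filter on dim probes (0.080). Without both WT-labelled motor neuron arrays it was 2.09 (adjusted p = 0.0156), again 2 arrays against 1. The other Unc5 receptors did not share this pattern in their values. Unc5b, which also binds netrin, gave 1.23 and 1.98 in KO-labelled and 2.29 and 0.29 in WT-labelled motor neurons, against 1.50 and 1.61 in non-motor neurons, so the fractions overlapped. Unc5c, a repulsive netrin receptor named here after its values were seen, leaned the other way on both probes, by -1.46 ± 0.66 (SE; adjusted p = 0.236) and -0.91 ± 0.45 (adjusted p = 0.297). All 4 motor neuron arrays read below both non-motor-neuron arrays on both Unc5c probes.

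**Figure D1:**
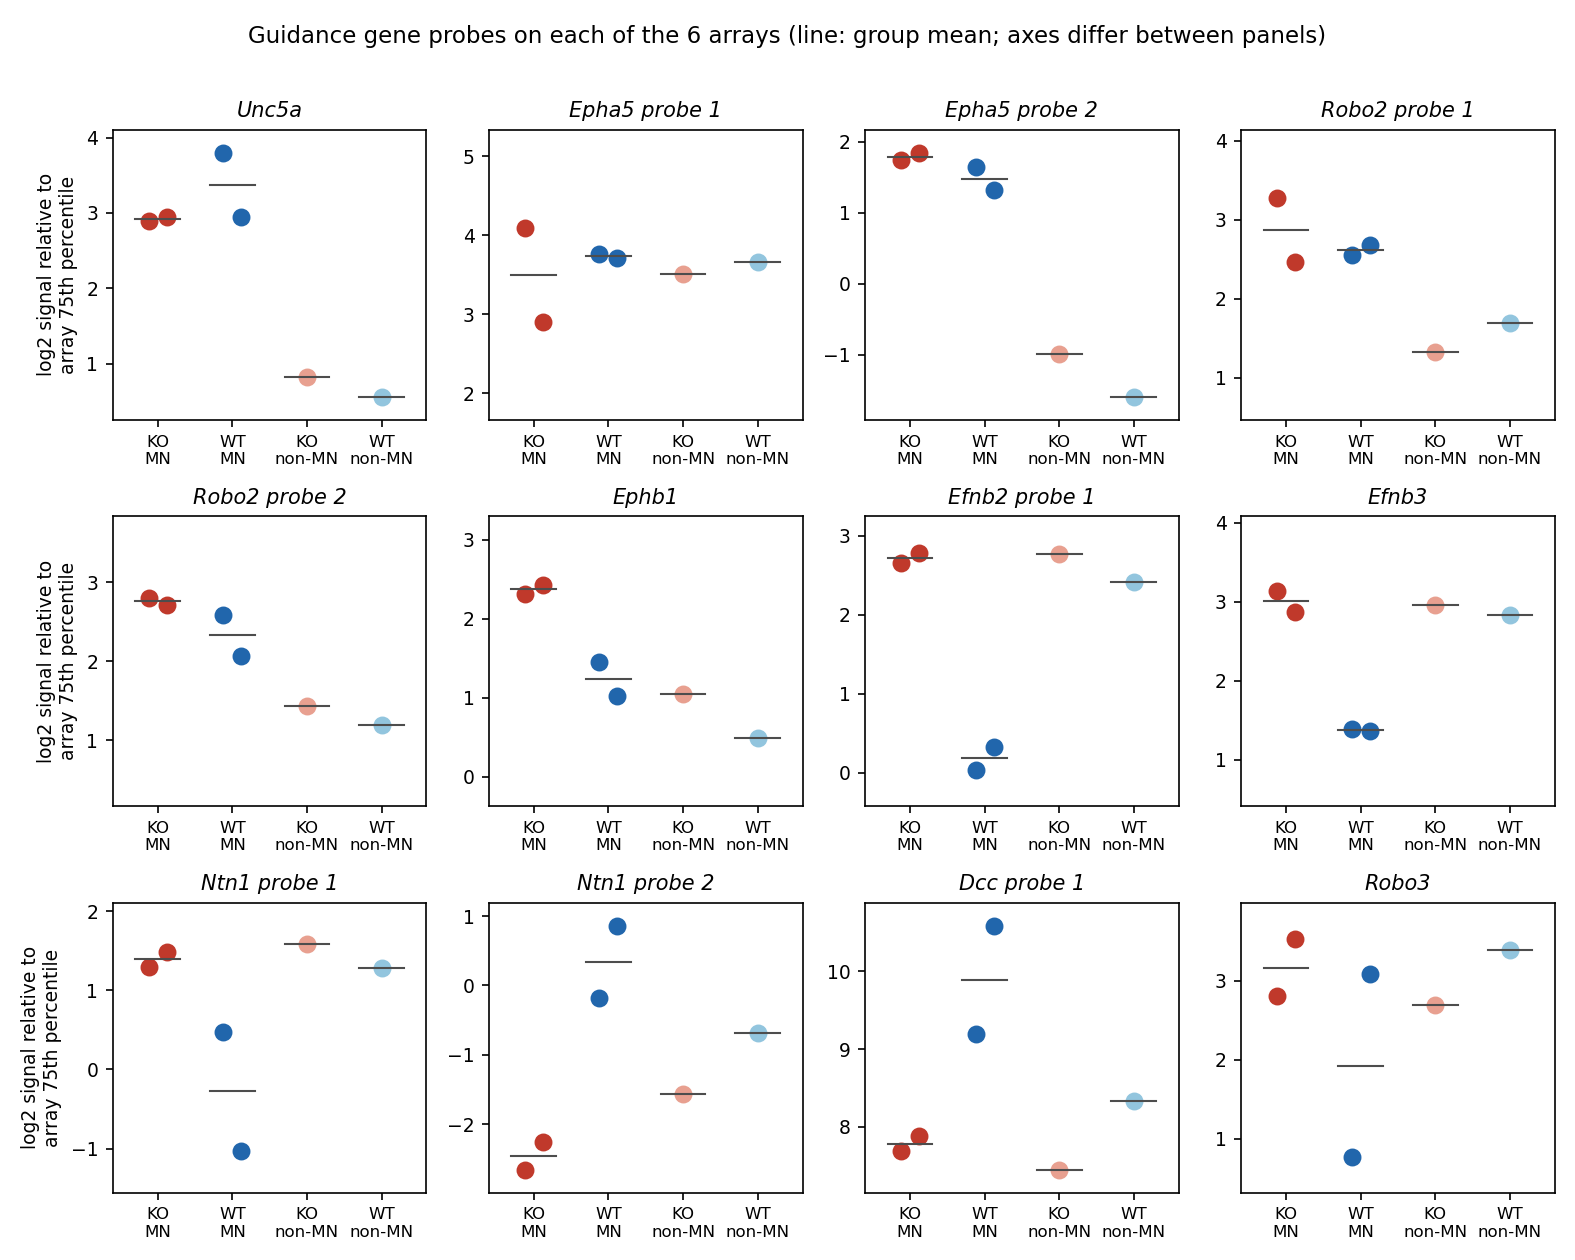
Log2 signal relative to the 75th percentile of each array (y axis, separate for each panel) on the 2 KO-labelled and 2 WT-labelled motor neuron (MN) arrays and the non-motor-neuron (non-MN) array of each label; points are arrays, lines group means. Unc5a and Epha5 probe 2 separate motor neurons from non-motor neurons, whereas Efnb2 probe 1 and Efnb3 are low on the WT-labelled motor neuron arrays and alike on the other 4; the Ntn1 probes turn opposite ways.

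The EphA receptors, 7 of them tested, held 0 called genes in limma (4 had an unadjusted p under 0.05, 2 in each direction). Epha5, a receptor for ephrin-A ligands, had 2 probes that carry the same transcript accession. Probe 2 read 1.74 and 1.84 in KO-labelled motor neurons, 1.64 and 1.33 in WT-labelled motor neurons, and -0.99 and -1.59 in non-motor neurons. On this probe motor neurons were 7.61-fold higher, a difference of 2.93 ± 0.44 (SE; adjusted p = 0.0345 over 33265 probes, of which 0.854% passed, 0.649% as higher). Probe 1, which stood for the gene because its mean was higher, read 4.09 and 2.90, then 3.77 and 3.71, then 3.51 and 3.65 in the same order. There the fractions overlapped, with a difference of 0.04 and a 95% interval of -1.07 to 1.14. Epha8 gave 1.83 and 1.61 in KO-labelled and 2.12 and 1.41 in WT-labelled motor neurons, against 0.80 and 0.59 in non-motor neurons. All 4 motor neuron values were higher, by 1.05 ± 0.42 (SE; adjusted p = 0.196). Epha6 was not well above background in non-motor neurons or on 2 of the 4 motor neuron arrays, so no fold is given (adjusted p = 0.0999).

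Differences below 0 included those of Epha1, Epha3 and Epha4. Epha1 gave -1.53 ± 0.46 (SE; adjusted p = 0.115), but 3 of its 4 motor neuron values were not well above background. Epha3, a partner of ephrin-A5, read 0.65, 1.70, 0.39 and -0.44 in motor neurons and 2.26 and 1.53 in non-motor neurons, a difference of -1.32 ± 0.48 with overlapping fractions. Epha4, a receptor of limb motor neurons, differed by -0.65 ± 0.42 (SE; adjusted p = 0.383), and its KO-labelled motor neurons, at 1.08 and 1.45, lay among the non-motor-neuron values of 1.56 and 0.85. The 3 probes of Epha7 gave differences between -0.08 and 0.05.

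Among the EphB receptors 0 of 5 passed in limma, with 1 (Ephb1) at an unadjusted p under 0.05. Ephb1, also a receptor of limb motor neurons, read 2.32 and 2.43 in KO-labelled motor neurons and 1.45 and 1.02 in WT-labelled ones, against 1.05 and 0.49 in non-motor neurons. The fractions met at a WT-labelled array, and the difference was 1.03 ± 0.41 (SE; adjusted p = 0.192). Ephb6, a member that lacks kinase activity, was higher on every motor neuron array at probe 1, by 0.86 ± 0.42 (SE; adjusted p = 0.264), with 2.44, 2.14, 3.27 and 3.08 against 1.82 and 1.94. At its probe 2 the fractions overlapped, with -1.84, -2.79, -2.07 (not well above background) and -0.90 against -2.98 and -2.20, a difference of 0.69. The brightest EphB probe by mean, that of Ephb3, gave 5.17 and 4.23 in KO-labelled, 4.68 and 4.61 in WT-labelled motor neurons and 4.85 and 4.99 in non-motor neurons. Ephb4, best known from vessels, read 2.66, 2.53, 3.04 and 2.32 in motor neurons and 2.91 and 2.87 in non-motor neurons at probe 1. Neither Ephb3 nor Ephb4 separated the fractions.

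Of the 8 ephrin ligands 0 passed between the fractions in limma, and 0 had an unadjusted p under 0.05. Efna2, an A-class ligand, read 1.72 and 1.48 in KO-labelled and 2.22 and 1.83 in WT-labelled motor neurons, against 1.35 and 1.48 in non-motor neurons, a difference of 0.40 ± 0.40 (SE; adjusted p = 0.576). Efna5, another A-class ligand, gave 3.20 and 3.13, then 3.43 and 2.13, then 3.39 and 3.12, with no separation. The A-class differences ran from -0.89 for Efna1 to 0.40 for Efna2. The B-class genes had a median of -0.71, and all 3 were below 0 (Efnb1 -0.17, Efnb2 -1.14, Efnb3 -0.71), with none past the threshold.

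Of 3 Slit and 3 Robo genes 0 passed in limma, with 1 of each (Slit1 and Robo2) at an unadjusted p under 0.05. Slit1 read 1.62 and 1.99 in KO-labelled motor neurons, 2.22 and 1.79 in WT-labelled ones, and 0.58 and 0.92 in non-motor neurons. It was higher on 4 of 4 motor neuron arrays, by 1.16 ± 0.41 (SE; adjusted p = 0.155). Slit2, which motor neurons and the floor plate are both known to make, gave 2.27 and 1.83, then 2.11 and 1.13, then 1.84 and 1.0, and the fractions overlapped. Slit3 leaned to non-motor neurons, at -0.84 ± 0.52 (SE; adjusted p = 0.368), and an array of WT-labelled motor neurons, at 1.17, was its highest. Robo2, a Slit receptor, gave alike values on its 2 probes. Probe 1 read 3.28, 2.46, 2.56 and 2.68 in motor neurons and 1.32 and 1.69 in non-motor neurons, and probe 2 read 2.80, 2.71, 2.59 and 2.07 against 1.43 and 1.20. Motor neurons were above non-motor neurons on every array at both probes, by 1.24 ± 0.44 (SE; adjusted p = 0.156) and 1.23 ± 0.45 (adjusted p = 0.195). Robo1, the Slit receptor of many commissural and motor axons, read 3.34 and 3.84 in KO-labelled motor neurons, 2.51 and 1.46 in WT-labelled ones, and 3.66 and 2.80 in non-motor neurons. Robo3, known from commissural axons before they cross, read 2.80 and 3.53, then 0.77 and 3.08, then 2.69 and 3.39. Neither Robo1 nor Robo3 separated motor neurons from non-motor neurons. Robo3 and Efnb1 were the 2 members whose fraction differences had opposite signs under the labels on every array, as 15.6% of all genes did.

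The netrin ligands and their attractive receptors also held 0 calls of 4 between the fractions in limma, with 1 (Ntn4) at an unadjusted p under 0.05. Ntn4 was well above background on only 2 of the 6 arrays. Dcc read 7.68 and 7.88 in KO-labelled motor neurons, 9.20 and 10.59 in WT-labelled ones, and 7.45 and 8.34 in non-motor neurons at probe 1. The fractions overlapped, and the differences of its 3 probes were 0.94, 1.20 and 1.05, none past the threshold. Neo1, the DCC relative neogenin, gave 1.66 and 2.25, then 2.12 and 1.01, then 2.72 and 2.23, a difference of -0.72 ± 0.47 (SE; adjusted p = 0.388). Ntn1, the floor plate attractant, differed by -0.88 ± 0.55 (SE; adjusted p = 0.372) at probe 1 and by 0.06 at probe 2. Floor plate markers summed to 4.72 to 6.40 in KO-labelled motor neurons, 1.85 to 2.77 in WT-labelled ones and 9.01 to 15.1 in non-motor neurons (0 of 5 genes passed); their part in the Ntn1 values was not tested.

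Across both fractions 8 of 33 members had every motor neuron array above both non-motor-neuron arrays (Unc5a, Epha6, Epha8, Ephb6, Efna2, Slit1, Robo2 and Ntn4), where 10.9% of all genes did. For 2 members (Epha1 and Unc5c) every motor neuron array lay below, where 16.8% of all genes did. Of these members, Ntn4 and Epha6 were each well above background on 2 of the 6 arrays and Epha1 on 3. Ephb6 separated the fractions at probe 1 but not at probe 2. Efna2 separated them only narrowly, at 1.482 on its lowest motor neuron array against 1.476 on its highest non-motor-neuron array. Other cell types moved with the fraction as well: red cell markers fell in motor neurons for 5 of 8 genes, with sums of 244 to 575 in motor neurons and 1353 to 1458 in non-motor neurons. Commissural and dorsal interneuron markers, of which 1 of 9 passed, summed to 21.5 to 35.3 in motor neurons and 9.51 to 12.4 in non-motor neurons. Neural crest, Schwann and sensory markers rose in motor neurons for 2 of 8 genes (sums of 29.6 to 67.9 against 13.5 to 15.7), and ventral interneuron markers for 1 of 7 (4.52 to 7.62 against 1.74 to 1.79). The part of these cells in the guidance gene values was not tested. In bulk RNA, fewer cells of a type and less RNA per cell cannot be told apart.

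**Figure D2:**
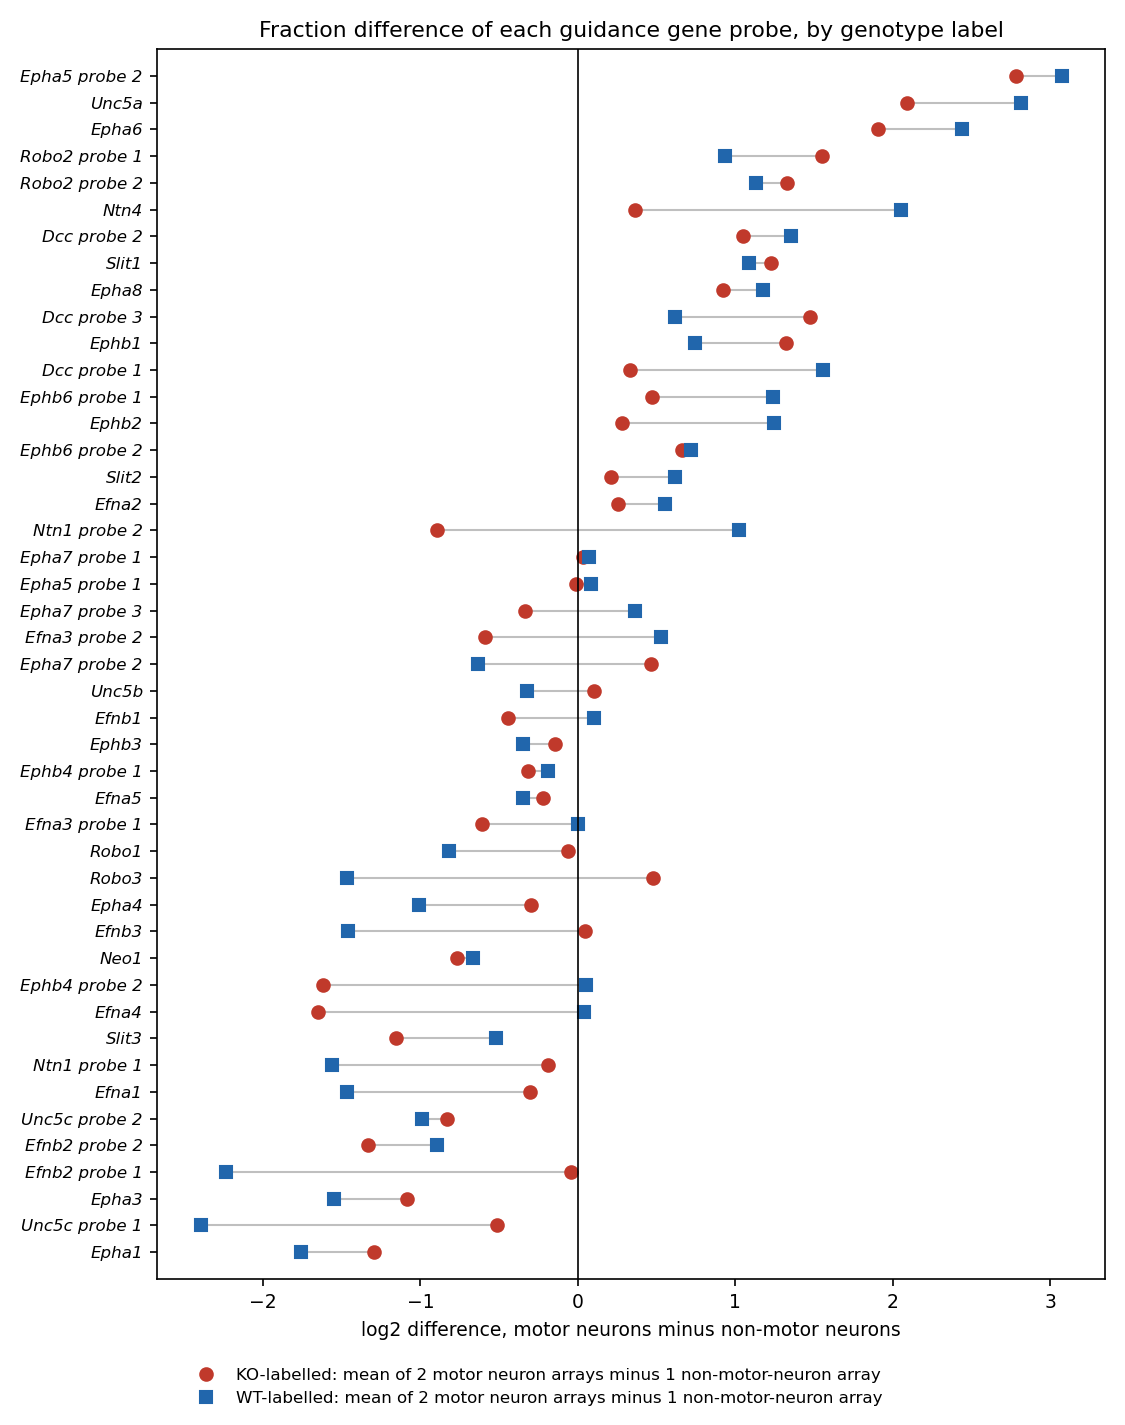
Difference of motor neurons minus non-motor neurons (log2, x axis) for each of the 45 tested guidance gene probes, computed within the KO label (circles) and within the WT label (squares); grey lines join a probe's values. Epha5 probe 2 (2.78 and 3.07) and Unc5a (2.09 and 2.82) lie near the top under both labels, beside Epha6, whose place is not exact because it was not well above background on either non-motor-neuron array, while Efnb2 probe 1 and Unc5c probe 1 differ between the labels.

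The second comparison asked how the genotype label went with these genes inside motor neurons. Efnb2 and Efnb3, B-class ephrins, were 5.80-fold and 3.09-fold higher with the KO label, and the netrin receptor Dcc was 4.33-fold lower. Ntn4, a secreted netrin, passed as lower but was not well above background on either WT-labelled motor neuron array. Its higher readings were on those arrays, so neither a fold nor a direction is given for Ntn4. The calls, with Ntn4 counted as lower, were 2 higher and 2 lower of 33 members, 12.1%. Over all genes 23% passed (15.8% higher, 7.24% lower), so the members' share was below the background. An unadjusted p under 0.05 was found for 11 members and for 38.4% of all genes. The median member difference was 0.05, beside 0.34 over all genes. Each call rests on the 2 WT-labelled arrays that stood apart, and label and slide row cannot be told apart here, since both KO-labelled motor neuron arrays lay in a slide row of their own. Permuting 2 arrays against 2 exactly could give 1 gene no p below 0.333, and the calls lean on the spread shared across genes.

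Efnb2, a transmembrane ligand of EphB receptors and EphA4, read 2.66 and 2.78 in KO-labelled motor neurons, 0.04 and 0.33 in WT-labelled ones, and 2.76 and 2.42 in the KO-labelled and WT-labelled non-motor neurons. The WT-labelled motor neuron arrays were the low ones, and the other 4 lay between 2.42 and 2.78. The difference in motor neurons was 2.54 ± 0.47 (SE; adjusted p = 0.0107), and it kept its direction when any motor neuron array was left out, with adjusted p = 0.0734 without KO-labelled replicate 2. Efnb2 probe 2 was not well above background in any motor neuron array, and with the mean of both probes the difference was 0.61 (adjusted p = 0.340). Efnb3, the third B-class ligand and a midline barrier to corticospinal axons, read 3.13 and 2.87, then 1.39 and 1.36, then 2.96 and 2.83. Again the WT-labelled motor neurons were low and the other 4 arrays close together, with a difference of 1.63 ± 0.47 (SE; adjusted p = 0.0379, or 0.0642 with the replicate number as a block, 0.0744 after quantile normalization, and 0.254 to 0.265 when a KO-labelled array was left out). Efnb1 went the other way, with 4.61 and 4.55, then 5.25 and 5.12, then 5.03 and 5.08. Its WT-labelled motor neurons were the high ones, with a difference of -0.60 (adjusted p = 0.373). Markers of other cells moved beside the B-class ligands: neural progenitor markers rose with the KO label in motor neurons for 3 of 9 genes (sums of 117 to 136 against 34.7 to 65.5), microglia and macrophage markers for 6 of 9 (25.2 to 27.6 against 8.65 to 13.3), neural crest, Schwann and sensory markers for 3 of 8 (47.9 to 67.9 against 29.6 to 39.5) and motor neuron markers for 4 of 12. Endothelial markers, of which 2 of 8 rose and 1 fell, summed to 8.57 to 14.9 against 16.4 to 116, with 3 to 8 of the 8 above background on each array. Their part in the ephrin-B values was not tested.

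The A-class ligands had 0 calls among 5 genes in limma, with 2 (Efna3 and Efna4) at an unadjusted p under 0.05. Efna3 read -1.72 and -1.35 in KO-labelled motor neurons, -1.01 and 1.43 in WT-labelled ones, and -0.93 and 0.21 in non-motor neurons, a difference of -1.75 ± 0.75 (SE; adjusted p = 0.122). Efna4 read -1.33 and -0.95, then -0.40 and 1.03, then 0.51 and 0.27, a difference of -1.45 ± 0.58 (SE; adjusted p = 0.102). In both genes a single WT-labelled array, replicate 2, stood far above the other. Efna1, Efna2 and Efna5 differed by -0.42 to 0.43.

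Among the Eph receptors 0 of 12 tested genes passed in limma, with Epha4 and Ephb1 at an unadjusted p under 0.05. Epha4 came nearest, at 1.08 and 1.45 in KO-labelled motor neurons, -0.34 and 0.02 in WT-labelled ones, and 1.56 and 0.85 in non-motor neurons, a difference of 1.42 ± 0.48 (SE; adjusted p = 0.0617). Ephb1, described above, differed by 1.14 ± 0.47 (SE; adjusted p = 0.114), and Ephb2, an EphB receptor of midline and limb axons, by -1.26 ± 0.58 (adjusted p = 0.142). Ephb4 had probes that disagreed in size. Probe 2 read -0.97 and -1.08 in KO-labelled motor neurons, 0.80 and 1.72 in WT-labelled ones, and 0.60 and 1.21 in non-motor neurons, a difference of -2.28 ± 0.55 (SE; adjusted p = 0.0221 over all probes). On this probe the KO-labelled motor neurons were the arrays that differed from the other 4. Probe 1 gave -0.09, with a 95% interval of -1.29 to 1.11.

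The 3 Slit and 3 Robo genes had 0 calls in limma, with 1 (Robo1) at an unadjusted p under 0.05. Robo1 differed by 1.61 ± 0.54 (SE; adjusted p = 0.0612), with both WT-labelled motor neuron arrays below every other array. Slit1, Slit2 and Slit3 differed by -0.20, 0.43 and -0.88, and Robo2 by 0.25 and 0.43 on its probes. Robo3 differed by 1.24 ± 0.74 (SE; adjusted p = 0.252), and the single low value was WT-labelled replicate 1, at 0.77; without that array the difference was 0.09, and without the other WT-labelled array it was 2.39 (adjusted p = 0.00299).

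Among members with more than 1 probe, Ntn1 had the widest gap between the label differences of its probes. Ntn1 probe 1 read 1.30 and 1.49 in KO-labelled motor neurons, 0.48 and -1.03 in WT-labelled ones, and 1.58 and 1.28 in non-motor neurons. Ntn1 probe 2 read -2.66 and -2.26, then -0.19 and 0.86, then -1.56 and -0.69. The label difference was therefore 1.67 ± 0.62 (SE; adjusted p = 0.0735) on probe 1 and -2.80 ± 0.57 (adjusted p = 0.0148) on probe 2, so no direction is given for the gene. Ntn4 read -3.93 (not well above background) and -4.07, then -2.33 and -2.16 (neither well above background), then -4.36 and -4.30 (the last not well above background). The weakest signals that counted as well above background were -2.76 and -4.97 on the KO-labelled motor neuron arrays and -2.10 and -2.30 on the WT-labelled ones. The higher Ntn4 readings, on the WT-labelled arrays, thus lay near these limits, and no direction is given for Ntn4.

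Dcc probe 1, whose 6 values are given above, was lower with the KO label, at -2.11 ± 0.57 (SE; adjusted p = 0.032). The WT-labelled pair in motor neurons read higher than all other arrays, and they differed from each other by more than the other 4 arrays did. Probe 2 read 0.14 and 0.29, then 0.85 and 2.39, then -0.83 and 0.27, and probe 3 read -2.20 and -2.59, then -2.43 (not well above background) and -1.21, then -3.87 and -2.44. All 3 probes were lower on average with the KO label, at -2.11, -1.40 and -0.58, and the other 2 did not pass (adjusted p = 0.119 and 0.486). The Dcc call was lost under each other normalization tried, with adjusted p = 0.0759 after subtracting each array's median, 0.151 after quantile normalization and 0.0574 with normexp. It was also lost when either KO-labelled array was left out (0.112 and 0.122) and with the mean of its 3 probes. The size moved as well, to -1.08 after quantile normalization, -1.42 without WT-labelled replicate 2 and -2.81 without WT-labelled replicate 1. Commissural and dorsal interneuron markers had a median label difference of -1.42 over 9 genes (1 higher and 2 lower past the threshold, sums of 23.6 to 35.3 with the KO label and 21.5 to 27.2 with the WT label), and their part in the Dcc values was not tested. Neo1 differed by 0.39 ± 0.55 (SE; adjusted p = 0.635). Among the Unc5 receptors, Unc5a differed by -0.45 ± 0.51 (SE; adjusted p = 0.542, interval -1.60 to 0.70) and Unc5b by 0.31 ± 0.69 (adjusted p = 0.769). Unc5c probe 1 read 0.52 and 0.96 in KO-labelled motor neurons, -0.33 and -2.36 (not well above background) in WT-labelled ones, and 1.26 and 1.05 in non-motor neurons, a difference of 2.09 ± 0.68 (SE; adjusted p = 0.0561). Unc5c probe 2 read -0.79 and -1.02, then -0.86 and -0.47, then -0.07 and 0.33, a difference of -0.24 with the labels overlapping.

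**Figure D3:**
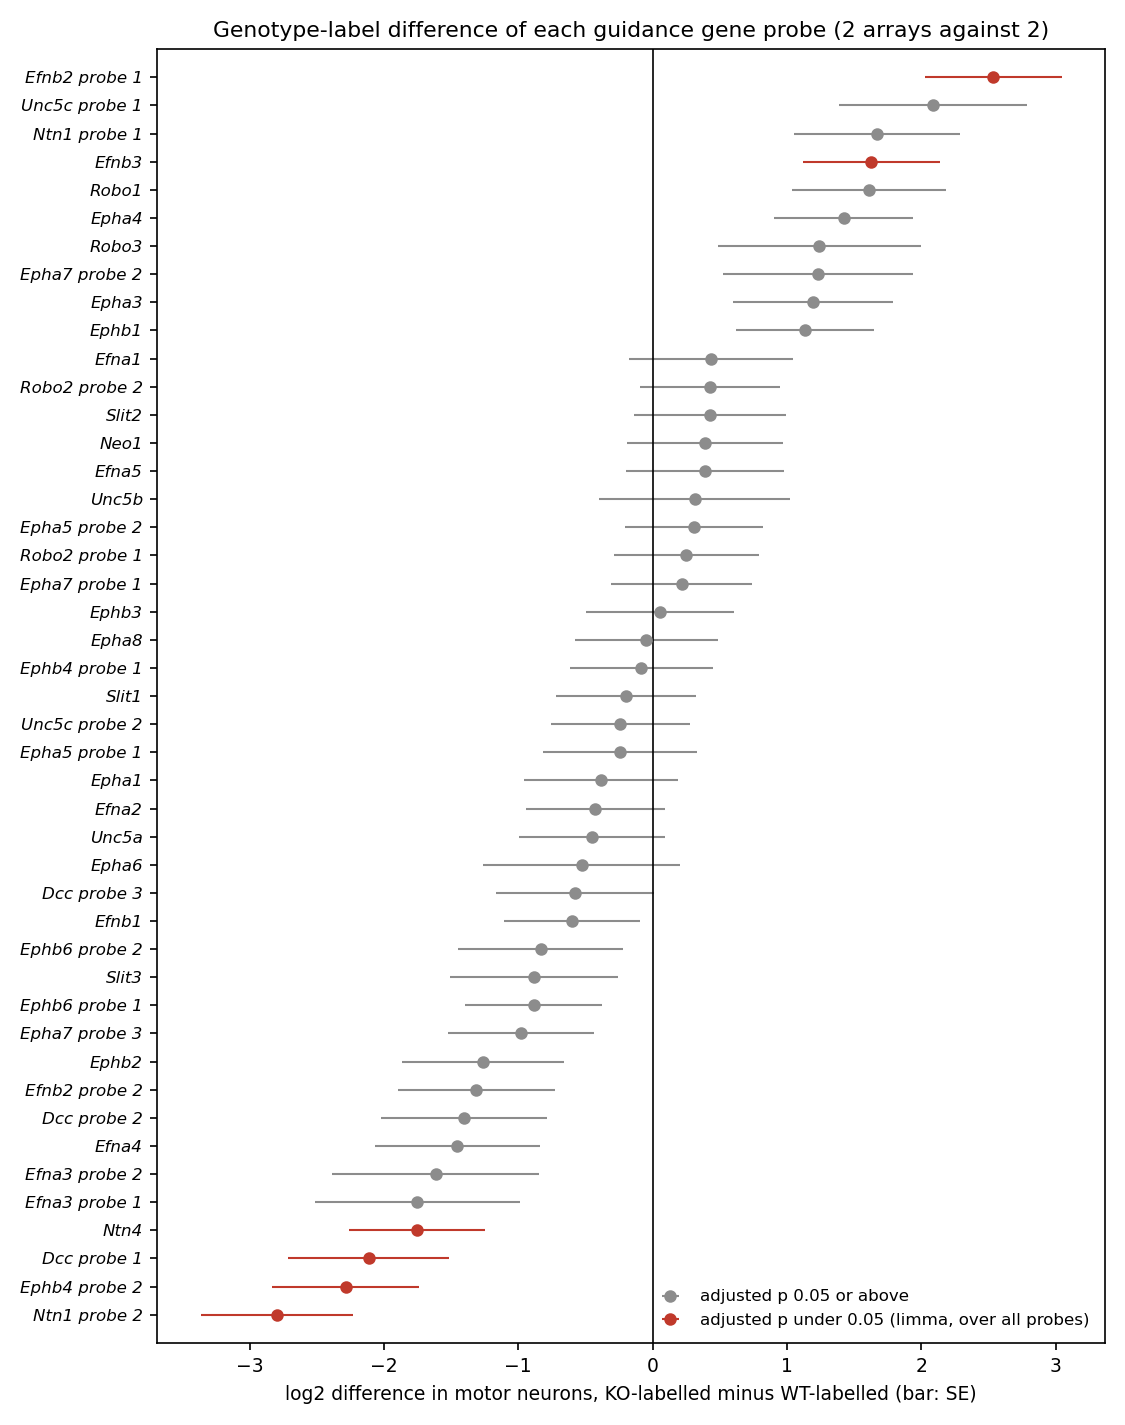
Difference of KO-labelled minus WT-labelled motor neurons (log2, x axis) for the 45 tested guidance gene probes; points are the difference of 2 arrays against 2, bars the standard error, and red marks an adjusted p under 0.05 over all probes. The 2 probes above 0 that passed are Efnb2 probe 1 and Efnb3, and the 4 below 0 are Ntn4, Dcc probe 1, Ephb4 probe 2 and Ntn1 probe 2, while the other Ntn1 probe lies on the opposite side.

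Probe by probe, 6 of 45 passed (2 higher, 4 lower), 13.3%, beside 24.8% of all probes (10.6% higher, 14.2% lower). Without overlap between labels, 8 of the 33 genes were higher and 9 lower with the KO label, where 41.3% and 26% of all genes were. Of the 10 members with more than 1 tested probe, 5 had all probes on the same side of 0 for the label, where 48.7% of 3887 such genes did, and 8 had them on the same side for the fraction, where 64% did. The scaling of the arrays shifts these splits. With each array's median subtracted the median over all genes moved from 0.34 to 0.98, the calls over all genes from 2353 higher and 1080 lower to 4633 and 531, and the member calls from 2 and 2 to 9 and 0.

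The third comparison took the fraction difference within each label and set the labels against each other. Within the KO label 0 of 33 members passed in limma, as did 0% of all genes, with 4 members at an unadjusted p under 0.05 where 9.48% of genes were. Each label has 1 non-motor-neuron array, so the spread in these tests comes from the motor neuron pairs alone. Within the WT label Unc5a passed, 1 of 33, beside 5.85% of all genes (1.49% higher in motor neurons), and 7 members had an unadjusted p under 0.05, where 27% of genes did. The test of the difference between labels called 0 members and 0% of genes, with 1 member, Efnb2, at an unadjusted p under 0.05 (9.59% of genes were). In simulated data that test recovered 0 of 66 planted changes of 4 log2, so its lack of calls cannot show a lack of difference. Efnb2 differed between fractions by -0.05 within the KO label and -2.23 within the WT label, a difference of 2.19 ± 0.81 (SE; adjusted p = 0.455). The 2 non-motor-neuron arrays, with no replicate and so no test, lay close together for the members: the median KO-minus-WT difference over 33 members was 0.004, with a range from -1.14 for Efna3 to 0.86 for Robo1. Past 1 log2 there were 0 members higher and 1 lower, where 3.22% and 3.32% of all genes were. The B-class ephrins that passed in motor neurons differed there by 0.35 for Efnb2 and 0.13 for Efnb3.

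Other genes of the same pathways were read from lists of signalling partners and of transcription factors known from spinal neurons. Of 30 Eph and ephrin partners tested, 4 were higher and 5 lower with the KO label in motor neurons (median 0.45, beside 0.34 over all genes, of which 15.8% were higher and 7.24% lower). They included the kinase Pak1 (3.19) and the small GTPase Cdc42 (2.33), both higher, and the kinase Src (-3.01) and the ligase Pdzrn3 (-3.42), both lower. Of 18 Slit and Robo partners, 4 were higher and 1 lower (median 0.88). Among them were the heparan sulphate enzymes Hs6st1 (2.75) and Ndst1 (1.99), Sos1, at least 1.06-fold higher, and the plexin Plxna1 (-2.36). Pak1 and Hs6st1 were each well above background on only 1 WT-labelled motor neuron array, so their sizes are not exact. Of 23 netrin, DCC and Unc5 partners, 6 were higher and 0 lower in limma (median 0.91), beside the same 15.8% and 7.24%. Dapk1, a death kinase that binds Unc5 receptors, was higher by 3.02, Trim9, a ligase that binds Dcc, by 2.16, the neogenin ligand gene Rgmb was at least 1.97-fold and the Unc5 ligand gene Flrt2 at least 5.25-fold higher. Between the fractions, the netrin list had Dscam, a netrin receptor, higher in motor neurons by 2.60 and Flrt2 lower (-2.77). Flrt2 was not well above background on either WT-labelled motor neuron array, so its size is not exact. The Eph list had Epha10 as higher. Epha10 was not well above background on either non-motor-neuron array or on 1 KO-labelled motor neuron array, so no fold is given. The Slit list had 0 calls of 18 in limma, with 1 at an unadjusted p under 0.05. Of 15 transcription factors, 4 were higher in motor neurons (Lhx4 by 3.88, Lhx3 by 2.78, Pou3f1 by 2.43 and Lhx2 by 2.0), beside 1.54% of all genes. With the KO label in motor neurons, 3 were higher (Isl1 by 2.57, Isl2 by 1.97 and Lhx2 by 1.93) and 1 was lower (Lmx1b, -2.16), beside 15.8% and 7.24% of all genes.

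The promoters of Unc5a, whose probe separated the fractions, and of Epha5, where probe 2 did and probe 1 did not, are given as the 250 bases before the annotated start (RefSeq, GRCm38.p6, 5′ to 3′ along the gene). Capitals mark TAATTA, a core that LIM homeodomain factors such as those of motor neurons can bind.
Unc5a, chr13:54949161-54949410, plus strand: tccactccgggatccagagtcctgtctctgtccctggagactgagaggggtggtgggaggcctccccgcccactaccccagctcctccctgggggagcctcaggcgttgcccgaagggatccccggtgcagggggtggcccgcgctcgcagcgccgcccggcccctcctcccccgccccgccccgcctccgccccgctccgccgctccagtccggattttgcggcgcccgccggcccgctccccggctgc
Epha5, chr5:84417383-84417632, minus strand: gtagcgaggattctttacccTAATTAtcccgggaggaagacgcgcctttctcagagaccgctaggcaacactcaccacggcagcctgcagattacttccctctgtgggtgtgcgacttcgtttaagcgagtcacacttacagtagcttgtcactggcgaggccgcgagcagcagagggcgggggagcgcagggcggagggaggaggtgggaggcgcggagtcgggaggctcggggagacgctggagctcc
TAATTA (its own reverse complement, so 1 search covers both strands) occurred in 4.84% of 32851 promoters and in 3 of 35 windows of the members (Efna1, Epha5 and Robo3), which covered 30 of the genes. The Unc5a window held none, and its GC content was 76.8%, against 62.4% for Epha5 and a median of 52.4% over all promoters. The E-box CANNTG, also its own reverse complement, was in 14 of the 35 member windows and in 66.2% of all promoters, and in neither window shown. A match is only a match of letters.

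The genes whose 6 values followed Unc5a most closely by Pearson's r were Me3 (0.997), Nomo1 (0.996) and Cfap36 (0.995). These are the highest of all genes tested over 6 arrays that share a split into 4 motor neuron and 2 non-motor-neuron arrays, and no test is attached to them.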

How the data were processed

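RNA from sorted cells was read on 6 1-colour Agilent arrays on 1 slide. Agilent Feature Extraction quantified the spots, in version 10.5.1.1 per the file headers and 9.1 per the submitters' processing notes. The deposited processed signal is an intensity corrected for background but not scaled between arrays. The authors' value table, in log2, matched the values used here within 0.01 for every probe. These values were the log2 processed signal averaged over the unflagged spots of a probe, minus the 75th percentile of the array. Array and file headers name mm9, so no coordinates of probes are given; sequences come from RefSeq tables of GRCm38.p6.

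A probe entered the tests when 2 or more of the 6 arrays had it well above background and it was not flagged throughout an array. The probe of highest mean stood for its gene. limma 3.58.1 in R 4.3.3 (lmFit, eBayes, Benjamini-Hochberg over 14919 genes or 33265 probes, threshold 0.05) fitted 4 group means for the label, interaction and within-label comparisons (2 residual degrees of freedom) and an additive model for the fraction (3). All adjusted p-values are limma's. Where a group was not well above background, the fold is a lower bound against the weakest signal that was. Such a fold is given only where every array of the other group was well above background. Other normalizations, filters, probe rules, models and left-out arrays were tried.

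Members, lists and tests were chosen with earlier results of these data known. Full values were given for members past the threshold and for the 2 of highest mean in each family; the others with full values, including Robo2, Unc5c, Epha3, Epha4, Ephb1, Ephb6, Efna3 and Efna4, were chosen after their values were seen, as were the promoters shown. Partners named were up to 4 per list and comparison, by size. One gene of the transcription factor list is not reported here. The labels do not say what arrays of the same replicate number share, and the main fits had no replicate block. Deviations of same-numbered motor neuron arrays from their group means correlated at r = -0.15, which cannot show whether they share a source. The fits were tested on simulated data with planted changes. The label fit recovered 0 of 67 changes of 1 log2, 2 of 67 of 2 log2 and 62 of 66 of 4 log2. The fraction fit recovered 0 of 67, 11 of 67 and 62 of 66. The interaction fit recovered 0 of 67, 0 of 67 and 0 of 66, so its lack of calls cannot show a lack of difference.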

Additional observations from a re-analysis of the deposited data

Results flagged for a closer look

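Among the members, 2 genes had fraction differences of opposite sign under the 2 labels on every array, as 15.6% of all genes did. Robo3 was higher in motor neurons within the KO label by 0.48 and lower within the WT label (-1.47), a difference of 1.94 between labels (adjusted p = 0.684). Efnb1 was lower within the KO label (-0.45) and higher within the WT label by 0.11, a difference of -0.55 between labels (adjusted p = 0.889). Neither passed the interaction test, which in simulated data recovered 0 of 66 planted changes of 4 log2 and so cannot show a lack of difference.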

How the results depend on the processing

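The count of members called by the label in motor neurons was 4. It became 9 with each array's median subtracted, 1 with quantile normalization, 2 with the mean of a gene's probes, 6 with probes above background on all arrays (Ntn4 lost, Epha4, Ntn1 and Robo1 gained), 4 with normexp (Dcc and Ntn4 lost, Robo1 and Ephb6 gained), and 0 with no filter on dim probes, with an additive model or with spike-in signal as a covariate (0%, 0% and 0.0536% of all genes called). Leaving out an array gave 0 to 16, the highest without WT-labelled replicate 1 (47% of all genes called) and the lowest without KO-labelled replicate 2 (6.07%). With the replicate block it was 5: Efnb3 was lost, and Efna3 and Unc5c passed. A crossed replicate block called 10 members (35.3% of all genes). It was chosen after seeing the data, because the deviations of same-numbered arrays correlated negatively (r = -0.15). For the fractions, a fit was also run on the replicate 1 arrays alone, with no block term. It has 1 array in each group, so no count is given.

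The count between fractions, 1, was 0 with quantile normalization and with no filter; leaving out an array gave 0 to 1, with 0 without KO-labelled motor neuron replicate 1, WT-labelled motor neuron replicate 1 or the WT-labelled non-motor-neuron array. Without both WT-labelled motor neuron arrays, a setting chosen after seeing the data, it was 2 (Unc5a, and Epha6, which was not well above background on either non-motor-neuron array), also within the KO label; this sets 2 arrays against 1. Leaving out an array gave 0 to 1 for the interaction (Unc5c without WT-labelled replicate 1), 0 to 2 within the KO label, and 1 to 10 within the WT label, where the count of 1 was 3 with the median subtracted, 0 with quantile normalization or no filter, and 2 with normexp or with probes above background on all arrays.

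Of member probes, 6 were called by label, against 12 with the median subtracted, 1 with quantile normalization, 0 with no filter, 10 above background on all arrays, and 1 to 16 leaving out an array. The probe count between fractions, 1, was 2 with the median subtracted, normexp or probes above background on all arrays, 0 with quantile normalization or no filter, and 0 to 2 leaving out an array. Direction turned for Ntn1 with the mean of its probes (-0.56), and for Unc5c with probes above background on all arrays (-0.24) and with the spike-in covariate (-0.19); the other probe of each gene explains the first and second by construction, and the cause of the third was not tested. No called member changed direction in the settings run. Of 22 members with an unadjusted p of 0.05 or above for the label, 20 had the other sign in some setting, and of 24 for the fraction, 10 did. The cause of the other changes in count was not tested. Weak arrays limit dim probes most: the weakest signal well above background lay at -2.10 and -2.30 on the WT-labelled motor neuron arrays.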
